A study of Homo sapiens with 12 samples.

Results

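The genes described here are 39 genes of the endoplasmic reticulum (ER) that fold secretory proteins, sense unfolded protein or send it for degradation, taken by gene symbol from a list of ER chaperones, sensors of the unfolded protein response (UPR) and genes of ER-associated degradation (ERAD). Each symbol was found in the table of 60617 genes, and all 39 were among the 14720 genes that reached a mean of 5 normalised read counts and were tested. By role, 6 are sensors or transcription factors, 10 are chaperones or their partners, 9 act on disulfide bonds, 11 belong to ERAD and 3 are channel or calcium proteins of the ER membrane. They were measured by bulk RNA-seq in PANC-1, an established cell line of pancreatic ductal adenocarcinoma with a wild-type genotype in the labels. The labels give 48 h for all 4 groups of 3 libraries, a time that the methods of the study count, for the knockdown, from the washing of the wells. One pair of groups received siRNA, either an irrelevant one against GL3 luciferase (siGL3) or one against MYOF, the gene of the membrane protein myoferlin (siMYOF). The other pair received either DMSO as solvent or 50 nM of WJ460, a compound described as targeting myoferlin. The siRNA groups have siGL3 as their control and the WJ460 group has DMSO. The model is limited to 1 cell line, 1 siRNA against MYOF, 1 dose and 1 time. Effects of that siRNA other than the loss of MYOF were not tested.

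The UPR has 3 sensors in the ER membrane. IRE1 (gene ERN1) is a kinase and RNase that removes an intron from the XBP1 mRNA, so that it encodes an active transcription factor. PERK (EIF2AK3) phosphorylates eIF2alpha, which lowers translation at large and favours that of ATF4. ATF6 travels to the Golgi and is cut there into a transcription factor. ATF6 and spliced XBP1 act on ER stress elements in promoters of chaperone and ERAD genes, and ERAD extracts misfolded proteins through the ubiquitin ligase SYVN1 (HRD1) and its adaptor SEL1L. A gene-level count does not separate spliced from unspliced XBP1 mRNA and says nothing of ATF6 cleavage, which occurs on the protein.

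The promoters of several of these genes hold such elements, and the sequences are shown because ATF6 and XBP1 act through them at the classical chaperone genes. RefSeq promoter windows (GRCh38.p14, 250 bases before to 50 bases after each start) were found for 36 of the 39 genes, not for PDIA3, DERL1 and DERL3. The ER stress element (ERSE) was searched as CCAAT, 9 bases of any kind, and CCACG, ERSE-II as ATTGG, 1 base of any kind, and CCACG, and the UPR element (UPRE) as TGACGTG, each on both strands. The 2 windows printed whole are those of HSPA5, the ER Hsp70 known as BiP, and HSP90B1, the ER Hsp90 known as GRP94. Capitals mark the fixed letters of each match.
HSPA5, chr9:125241294-125241593, minus strand: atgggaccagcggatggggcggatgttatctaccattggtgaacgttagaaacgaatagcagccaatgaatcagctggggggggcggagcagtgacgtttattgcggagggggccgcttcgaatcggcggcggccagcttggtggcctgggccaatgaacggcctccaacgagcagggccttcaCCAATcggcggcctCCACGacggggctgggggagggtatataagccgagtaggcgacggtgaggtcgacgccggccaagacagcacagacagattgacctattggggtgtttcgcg
HSP90B1, chr12:103930160-103930459, plus strand: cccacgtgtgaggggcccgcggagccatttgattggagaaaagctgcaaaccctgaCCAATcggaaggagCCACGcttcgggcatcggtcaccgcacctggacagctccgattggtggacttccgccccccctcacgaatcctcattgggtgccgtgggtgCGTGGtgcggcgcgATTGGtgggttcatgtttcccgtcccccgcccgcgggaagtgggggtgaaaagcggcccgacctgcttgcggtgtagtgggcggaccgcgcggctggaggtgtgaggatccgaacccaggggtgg
The HSPA5 match begins at position -66 from the start, and the matches of HSP90B1 begin at -194 and, on the reverse strand, at -89.

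Another 6 genes held an ERSE, and 3 held an ERSE-II. These sites are given 5′ to 3′ on the strand of the gene with up to 15 bases on each side, so that the fixed letters can be compared.
XBP1, chr22:28800588-28800636, minus strand: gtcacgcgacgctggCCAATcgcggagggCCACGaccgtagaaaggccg
PDIA6, chr2:10812838-10812886, minus strand: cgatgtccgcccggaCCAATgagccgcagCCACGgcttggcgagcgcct
CANX, chr5:179698763-179698811, plus strand: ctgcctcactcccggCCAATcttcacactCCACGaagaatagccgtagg
CALR (reverse), chr19:12938369-12938417, plus strand: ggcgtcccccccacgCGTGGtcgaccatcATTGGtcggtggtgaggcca
CRELD2 (reverse), chr22:49918539-49918587, plus strand: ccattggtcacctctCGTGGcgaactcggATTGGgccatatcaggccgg
ERO1B (reverse), chr1:236282168-236282208, minus strand: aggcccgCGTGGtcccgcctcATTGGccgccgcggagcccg
HERPUD1, chr16:56932010-56932050, plus strand: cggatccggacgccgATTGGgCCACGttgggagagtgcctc
HYOU1 (reverse), chr11:119057259-119057299, minus strand: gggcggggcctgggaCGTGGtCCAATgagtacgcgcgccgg
SDF2L1 (reverse), chr22:21642099-21642139, plus strand: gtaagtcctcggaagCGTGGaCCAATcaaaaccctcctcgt
ERSE matches were present in 0.0769% of all 35116 windows, ERSE-II matches in 0.0541% and UPRE matches in 1.97%. Counted by gene, since a gene can have several windows, the shares were 0.0916%, 0.0696% and 2.4% of 27305 genes. Among the 36 matched genes, 8 held an ERSE, 3 an ERSE-II and 3 a UPRE. The UPRE genes were SEC61A1, TXNDC5 and HYOU1, and in HYOU1 the UPRE overlapped another ERSE-II match at -185. A match is a description of the letters in these windows and no measure of binding.

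Library totals ranged from 12335147 to 19847210 reads, and the 39 genes held 0.736% to 0.924% of them. The labels give an earlier batch date for replicate 1 of siGL3 and of siMYOF (the early pair) than for the other 10 libraries, so the fit has a term for the early or late batch. MYOF itself was at 12786, 20169 and 17823 normalised read counts in the siGL3 libraries and at 3470.2, 2372 and 2003 in the siMYOF libraries. The groups did not overlap, with limma log2 fold change -2.71 ± 0.23 SE, adjusted p = 2.41e-05. Under WJ460 it was at 20151, 26083 and 22887, against 21147, 20492 and 19950.2 under DMSO (limma log2 fold change 0.16 ± 0.23 SE, adjusted p = 0.603). Of 9 ductal epithelial markers 8 were tested, with summed counts of 13110 to 40804 per library, although KRT7, at 0.725 to 8.83 normalised read counts, and CDH1, at 1.07 to 16.9, were close to absent. KRT8 and KRT18 made up most of this sum, at means of 9528 and 14563 under DMSO. EPCAM and CLDN4 were low, at means of 63.3 and 39.3 over all libraries. Fibroblast markers summed to 432 to 1337, with COL1A2, DCN, LUM and FAP at 0 in every library, leukocyte markers to 7.72 to 39.5 and endothelial markers to 0 to 5.69. The fibroblast sum was 432 to 598 under WJ460 against 818 to 885 under DMSO. Most of it was 1 gene, THY1, at a mean of 504 under WJ460 and 810 under DMSO, with PDGFRB at 14.8 and 34.9. Whether this fall has a part in the results was not tested.

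Levels per kilobase of exon used the union over all GENCODE 44 transcripts of a gene, whether or not each transcript was expressed. The order therefore depends on annotated lengths, such as 2802 bases for CALR, 3298 for PDIA4, 13092 for HSP90B1 and 20691 for EIF2AK3. On this measure the lectin chaperone CALR had the highest value of the 39 genes under DMSO, at 5626 normalised read counts per kilobase. PDIA4, PDIA6, HSPA5, HYOU1 and CANX followed at 2222, 1719, 1592, 1406 and 1163, and HSP90B1 was at 833. The sensors stood much lower, with ATF6 at 56.2, EIF2AK3 at 13.4 and ERN1 at 10.2 per kilobase. DERL3 (2.89) and TXNDC5 (0.563) were lowest, and both are uncertain: TXNDC5 shares 60.9% of its exon length with the readthrough gene BLOC1S5-TXNDC5 on the same strand, and DERL3 shares 77.0% with SMARCB1 on the other. Exon overlaps on the same strand are smaller for OS9 with AGAP2-AS1 (15.9%) and PDIA5 with SEC22A (12.0%).

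Knockdown of MYOF divided the 39 genes. The IRE1 gene ERN1, its substrate XBP1, the ERAD mannosidase-like gene EDEM1, the oxidase ERO1A and the cochaperones DNAJC3 and DNAJB9 rose, while the disulfide isomerase PDIA5, the calcium-handling gene WFS1, CRELD2 and CREB3L2 fell. In all 14 rose, 12 fell and 13 did not pass an adjusted p of 0.05 (limma, adjusted over all tested genes), so that 66.7% were called, beside 53.9% of all tested genes (28% higher and 25.9% lower). Their median log2 fold change was 0.08, beside 0.01 over all tested genes, and it was -0.03 with scaling by total reads, which moved the median of all genes to -0.096. These scaled values are relative to the other genes of a library, and neither cell number nor RNA per cell was measured.

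WJ460 divided them along other lines. The chaperones HSP90B1, HSPA5 and DNAJB11, the isomerases PDIA5 and PDIA3, the ERAD gene SELENOS and the translocon gene SEC61A1 rose, and CREB3L2, WFS1, EDEM3, SEL1L and CALR fell. In all 17 rose, 11 fell and 11 did not pass (71.8% called, limma), beside 52.9% of all tested genes (27.3% higher and 25.6% lower). With scaling by total reads, 10 rose and 13 fell, beside 2639 higher and 5195 lower of all 14720 tested genes under that scaling. That scaling also moved called values of CANX, HYOU1, PDIA6 and ATF6 (-0.45, -0.33, -0.33 and -0.45) and of CRELD2, OS9 and SEC61B (0.28, 0.21 and 0.25) under WJ460, and of PDIA6, CREB3 and DERL2 (-0.28, -0.33 and 0.19) under siMYOF, by more than 1.5 times with the calls kept. The median of the 39 genes was 0.07, beside 0 over all tested genes, and it was -0.09 with that scaling, which moved the median of all genes to -0.15. Under both treatments together 7 genes rose and 4 fell, 5 fell under siMYOF and rose under WJ460, and 2 (EIF2AK3 and EDEM3) rose under siMYOF and fell under WJ460. Such pairs of calls were not counted over all tested genes. These numbers therefore do not show whether the 39 genes agreed or opposed more often than other genes.

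**Figure D1:**
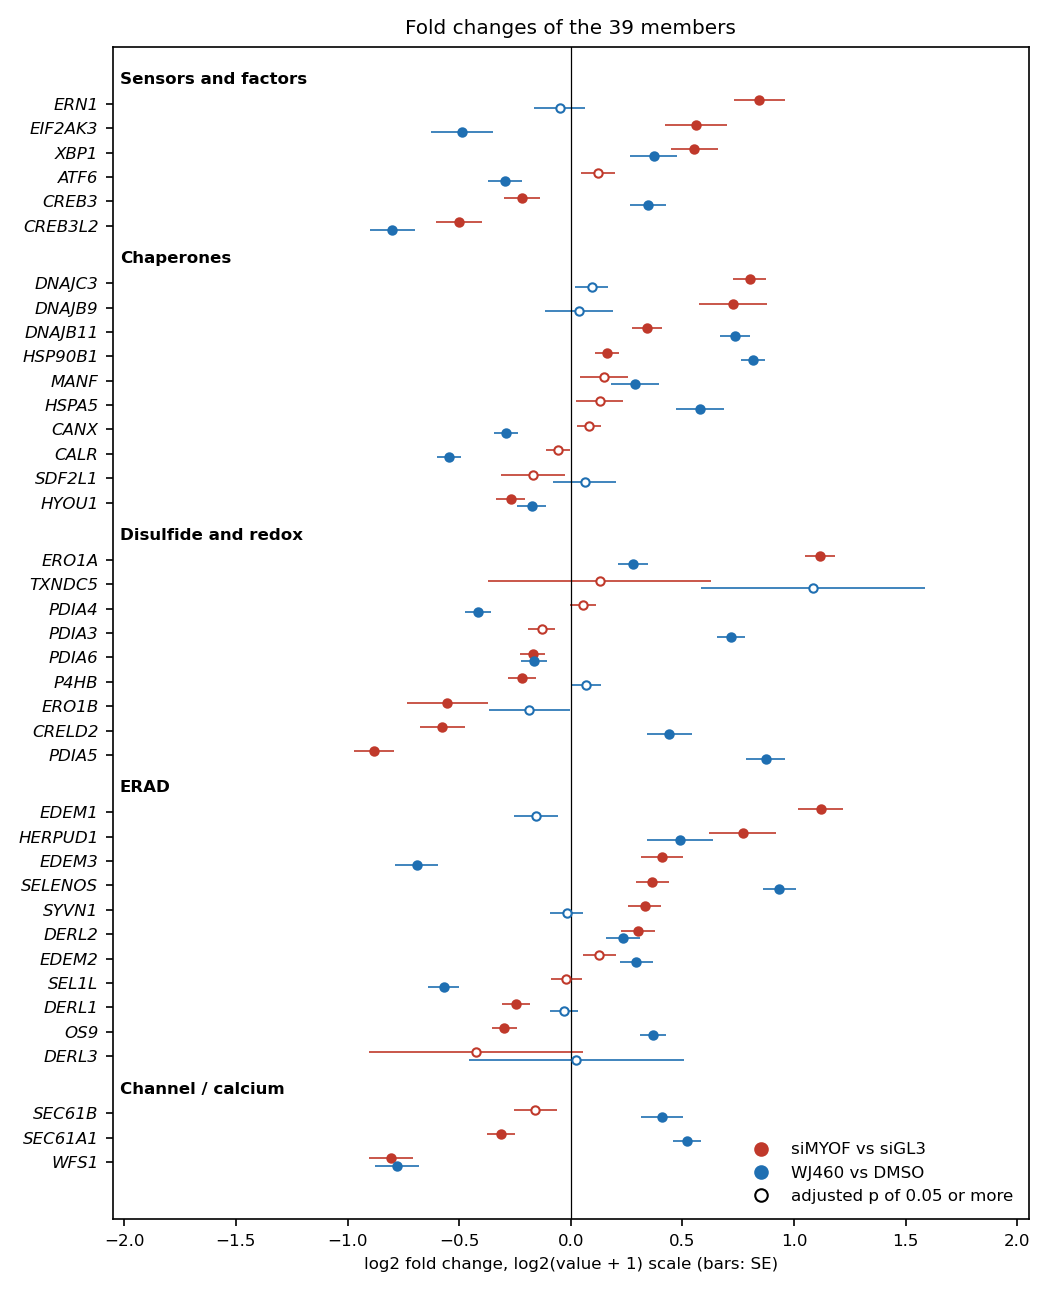
Log2 fold change of each of the 39 genes on the log2(normalised count + 1) scale (x axis) by gene and role (y axis), for siMYOF against siGL3 in red and WJ460 against DMSO in blue. Points are limma estimates with bars of 1 SE, open where the adjusted p was 0.05 or more; EDEM1 and ERO1A lie farthest to the right under siMYOF (both 1.12), and PDIA5 lies at -0.88 under siMYOF and 0.87 under WJ460.

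Among the sensors, ERN1 (chr17:64039080-64130819) rose under the knockdown and did not pass the test under the compound. It was at 149, 186 and 174 normalised read counts in the siGL3 libraries and at 312, 277 and 326 in the siMYOF libraries. Every siMYOF library exceeded every siGL3 library, with limma log2 fold change 0.84 ± 0.11 SE, adjusted p = 4.73e-06. The WJ460 libraries, at 184, 199 and 181, lay among the DMSO libraries, at 185, 188 and 212 (limma log2 fold change -0.05 ± 0.11 SE, adjusted p = 0.733). XBP1 (chr22:28794555-28800597) rose under both treatments. Its counts were 539, 789 and 962 for siGL3 and 1008, 1079 and 1188 for siMYOF, without overlap, with limma log2 fold change 0.55 ± 0.10 SE, adjusted p = 0.000229. They were 595, 625 and 629 for DMSO and 895, 748 and 758 for WJ460, again without overlap, with limma log2 fold change 0.37 ± 0.10 SE, adjusted p = 0.00635. With total-read scaling the WJ460 value of XBP1 was 0.21 (adjusted p = 0.0981).

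EIF2AK3 (PERK, chr2:88556741-88691518) moved in opposite directions. Counts were 191, 297 and 297 in the siGL3 and 367, 401 and 368 in the siMYOF libraries, where all 3 were higher than any control (limma log2 fold change 0.56 ± 0.14 SE, adjusted p = 0.00216). They were 266, 267 and 300.0 in the DMSO and 234, 212 and 156 in the WJ460 libraries, where all 3 were lower (limma log2 fold change -0.49 ± 0.14 SE, adjusted p = 0.00654). Both calls leaned on single libraries: without siGL3 replicate 1 or siMYOF replicate 1 the siMYOF value was 0.37 (adjusted p = 0.0551 and 0.0572), and without WJ460 replicate 3 the WJ460 value was -0.32 (adjusted p = 0.0557). ATF6 (chr1:161766298-161977574) was at 719, 857 and 812 in the siGL3 and 783, 974 and 842 in the siMYOF libraries, which overlapped (limma log2 fold change 0.12 ± 0.08 SE, adjusted p = 0.193). It fell under WJ460, from 804, 794 and 805 to 705, 619 and 639 (limma log2 fold change -0.29 ± 0.08 SE, adjusted p = 0.00306).

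CREB3 and CREB3L2 encode transcription factors held in the ER membrane and released by cleavage, as ATF6 is. CREB3L2 was at 438, 697 and 631 for siGL3 and 384, 444 and 396 for siMYOF, where only the early siGL3 library, at 438, lay inside the siMYOF range (limma log2 fold change -0.50 ± 0.10 SE, adjusted p = 0.000390). It was at 513, 463 and 483 for DMSO and 301, 276 and 260.4 for WJ460, without overlap (limma log2 fold change -0.80 ± 0.10 SE, adjusted p = 2.75e-06). CREB3 differed from its relative in rising under WJ460 (limma log2 fold change 0.35 ± 0.08 SE, adjusted p = 0.00130), from 715, 770.0 and 851 to 1036, 956 and 974, but was 0.19 (adjusted p = 0.0649) with total-read scaling. Under siMYOF it fell by 0.22 on the log2 scale (limma adjusted p = 0.0289), but not past the threshold without siGL3 replicate 3 (-0.15, adjusted p = 0.153) or siMYOF replicate 2 (-0.18, adjusted p = 0.121).

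**Figure D2:**
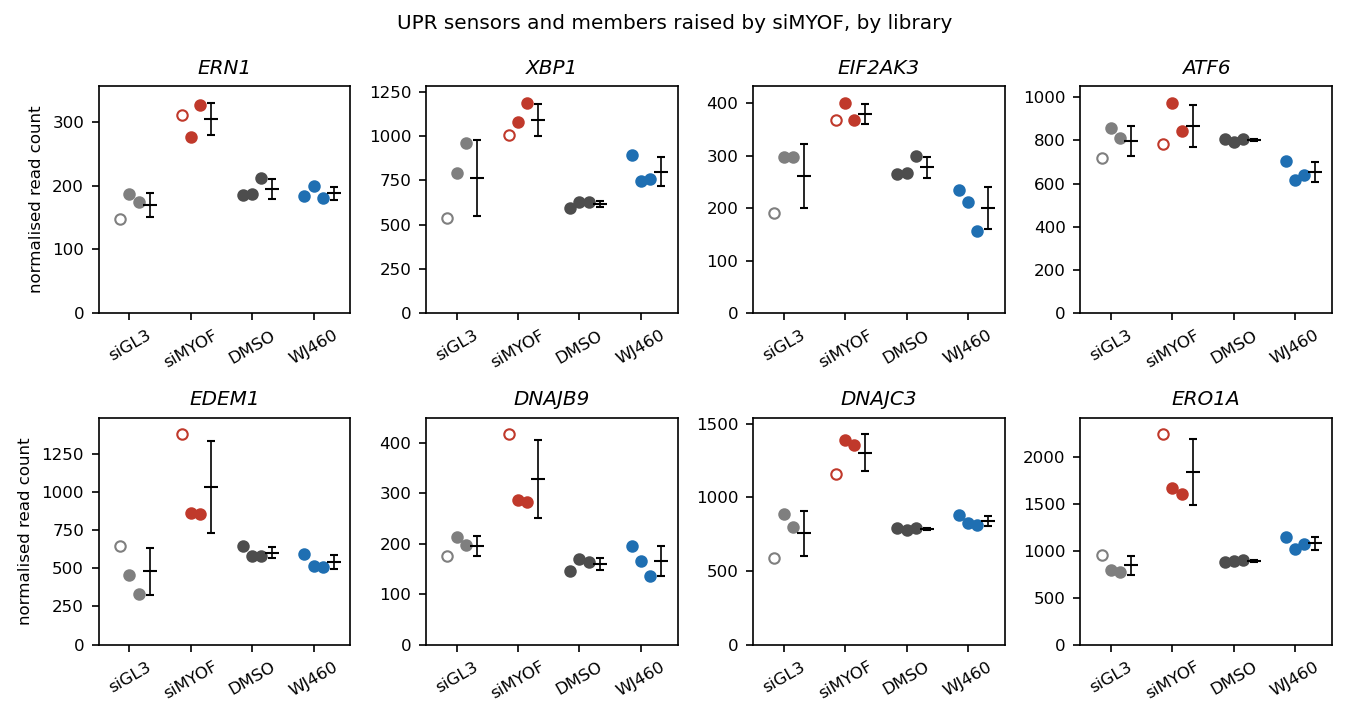
Normalised read counts (y axis, from 0) in each of the 12 libraries (points, by group on the x axis) of 4 sensor genes and 4 genes that rose under siMYOF, with the mean and SD of each group (n = 3) as bars. Open points are the early libraries; the siMYOF points of ERN1, EDEM1, DNAJC3 and ERO1A lie above all siGL3 points, and the WJ460 points of EIF2AK3 and ATF6 lie below all DMSO points.

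Of the 10 chaperones and partners, 4 rose, 1 fell and 5 did not pass under siMYOF, and 4 rose, 3 fell and 3 did not pass under WJ460 (50% and 70% called, beside 53.9% and 52.9% of all tested genes). HSPA5 passed the test under WJ460 and not under siMYOF. It was at 10462, 10504 and 10222 under DMSO and 16695, 14829 and 15097 under WJ460, where every library was higher (limma log2 fold change 0.58 ± 0.11 SE, adjusted p = 0.000348). In the siGL3 libraries it was at 8368, 13501 and 15098 and in the siMYOF libraries at 12604, 12883 and 13730.2. The low value is the early siGL3 library, the groups overlapped, and the knockdown value was 0.13 (95% interval -0.10 to 0.36, limma adjusted p = 0.327). The early pair differed by 0.59 and the late libraries by -0.10 on the log2 scale, a difference of 0.69 ± 0.12 (SE) with a limma adjusted p of 0.0232. That test called 0.265% of all tested genes and, among the 39 genes, HSPA5 only. The early arm of that test is 1 library of each group, which was assumed to vary like the others, since its SE comes from the spread of the other libraries. Without siMYOF replicate 2 the difference was 0.65 and did not pass (limma adjusted p = 0.102). The same test was passed by MYOF (difference 1.24 ± 0.18, adjusted p = 0.0110), whose log2 fold change was -1.88 between the early libraries and -3.12 between the late ones.

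HSP90B1 rose most of the chaperones under WJ460. Its counts were 11115, 10944 and 10661 under DMSO and 19382, 19534 and 18638 under WJ460, far apart relative to the spread (limma log2 fold change 0.81 ± 0.05 SE, adjusted p = 9.11e-10). They were 8509, 10395 and 10068 for siGL3 and 10041, 11228 and 11095 for siMYOF, which overlapped through the early pair (limma log2 fold change 0.16 ± 0.05 SE, adjusted p = 0.0137). Without siGL3 replicate 1 or siMYOF replicate 1 the knockdown value was 0.13 (adjusted p = 0.0836 and 0.0834), and with total-read scaling 0.05 (adjusted p = 0.356). DNAJB11 (ERdj3), an ER Hsp40 that hands unfolded protein to BiP, rose under both treatments and more under WJ460. It was at 850.2, 859 and 908 for siGL3 and 1129, 1109.7 and 1073 for siMYOF (limma log2 fold change 0.34 ± 0.07 SE, adjusted p = 0.000296). It was at 853, 827 and 781 for DMSO and 1329.9, 1338 and 1427 for WJ460 (limma log2 fold change 0.73 ± 0.07 SE, adjusted p = 5.18e-08). Neither pair of groups overlapped.

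The cochaperones DNAJC3 (p58IPK) and DNAJB9 (ERdj4, which also binds IRE1) rose under siMYOF and did not pass under WJ460. DNAJC3 was at 586, 885 and 796 for siGL3 and 1158, 1393 and 1356 for siMYOF, without overlap (limma log2 fold change 0.80 ± 0.07 SE, adjusted p = 4.58e-08). Under DMSO it was at 791, 781 and 792 and under WJ460 at 881, 827 and 814, a step that did not pass (limma log2 fold change 0.09 ± 0.07 SE, adjusted p = 0.308). DNAJB9 was at 175, 213 and 197 for siGL3 and 417, 286 and 282 for siMYOF, with the early siMYOF library highest (limma log2 fold change 0.73 ± 0.15 SE, adjusted p = 0.000516). In the late libraries alone every siMYOF value still exceeded every siGL3 value, by 0.47 on the log2 scale. The WJ460 libraries, at 196, 166 and 136, overlapped the DMSO libraries, at 147, 169.9 and 164 (limma log2 fold change 0.04 ± 0.15 SE, adjusted p = 0.855).

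The lectin chaperones fell under the compound. CALR was at 15967, 15733 and 15588 under DMSO and 11161, 10287 and 10973 under WJ460, without overlap (limma log2 fold change -0.55 ± 0.05 SE, adjusted p = 1.28e-07). In the siGL3 libraries it was at 9188, 12677 and 12347 and in the siMYOF libraries at 9238, 11869 and 11692, with the early library lowest in each group (limma log2 fold change -0.06 ± 0.05 SE, adjusted p = 0.405), or -0.17 (adjusted p = 0.00901) with total-read scaling. CANX, the membrane-bound relative of CALR, fell under WJ460 by 0.29 on the log2 scale (limma adjusted p = 0.000170) and was 0.08 under siMYOF (adjusted p = 0.219). HYOU1, the nucleotide exchange factor of BiP, fell under siMYOF by 0.27 (adjusted p = 0.00151) and under WJ460 by 0.17 (adjusted p = 0.0278), the latter not without any of 5 libraries, singly: DMSO replicates 1, 2 or 3 or WJ460 replicates 2 or 3 (-0.18 to -0.14, adjusted p = 0.0582 to 0.121). MANF, a secreted ER stress protein, was higher under WJ460 (0.29, adjusted p = 0.0319) but not without DMSO replicate 2 (0.20, adjusted p = 0.167) or 3 (0.29, adjusted p = 0.0684) or WJ460 replicate 1 (0.21, adjusted p = 0.138) or 3 (0.28, adjusted p = 0.0783) or with total-read scaling (0.13, adjusted p = 0.329), all by limma. SDF2L1, a partner of ERdj3, passed in neither treatment (-0.17 and 0.06), except that the siMYOF value was -0.41 (adjusted p = 0.0298 and 0.0304) without siGL3 replicate 1 or siMYOF replicate 1.

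**Figure D3:**
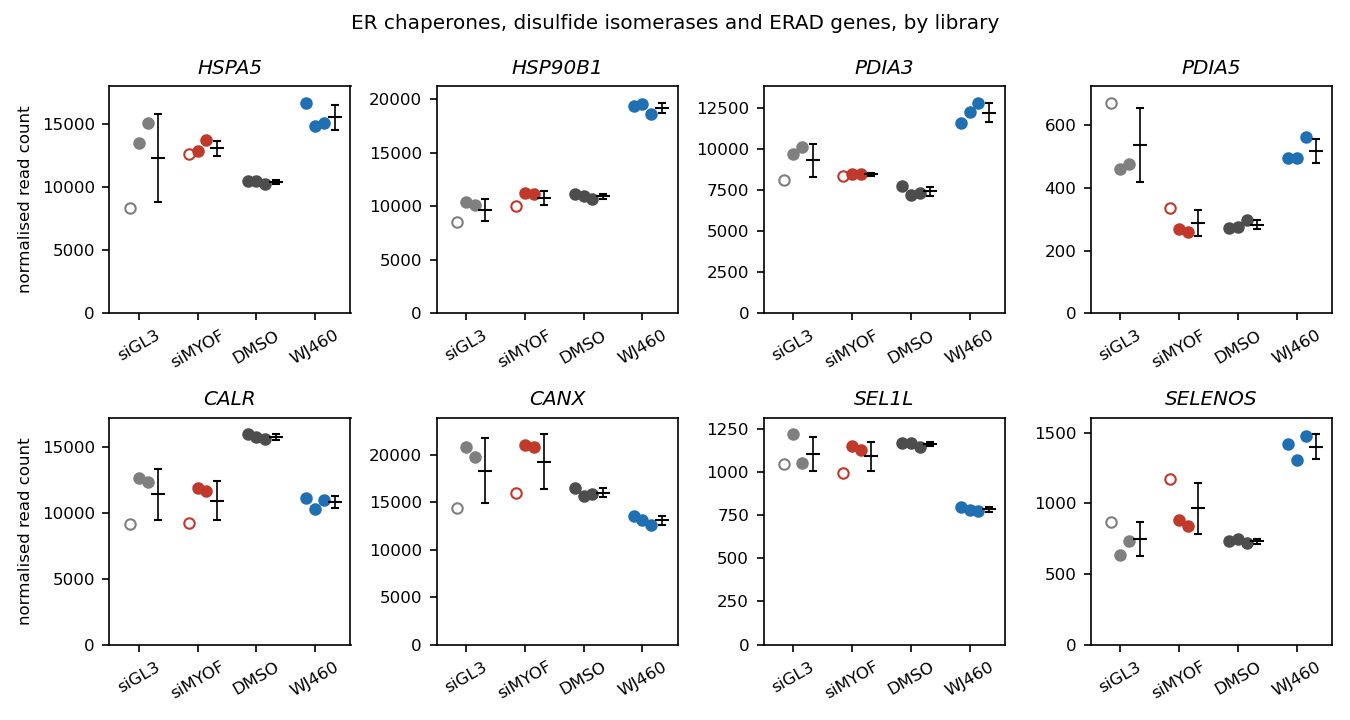
Normalised read counts (y axis, from 0) in each of the 12 libraries (points, by group on the x axis) of 4 chaperones, 2 disulfide isomerases and 2 ERAD genes, with the mean and SD of each group (n = 3) as bars. Open points are the early libraries; the WJ460 points of HSP90B1 (18638 to 19534) lie above all other points of that gene, and the early siGL3 point of HSPA5 (8368) is its lowest.

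Of the 9 disulfide genes, 1 rose, 5 fell and 3 did not pass under siMYOF, and 4 rose, 2 fell and 3 did not pass under WJ460 (66.7% called under each, beside 53.9% and 52.9% of all tested genes). PDIA5, a protein disulfide isomerase, moved farthest apart between the treatments. It was at 672, 459.6 and 477 normalised read counts for siGL3 and 336, 269.8 and 259 for siMYOF, every siMYOF library being lower (limma log2 fold change -0.88 ± 0.09 SE, adjusted p = 1.18e-07). It was at 273, 275 and 299 for DMSO and 496, 496 and 562 for WJ460, every WJ460 library being higher (limma log2 fold change 0.87 ± 0.09 SE, adjusted p = 1.66e-07). CRELD2, an ER stress gene with thiol isomerase-like motifs, had the same opposition. Its counts were 367, 352 and 465 for siGL3 and 241, 269 and 279.6 for siMYOF (limma log2 fold change -0.57 ± 0.10 SE, adjusted p = 8.51e-05). They were 377, 411 and 390.4 for DMSO and 568, 495 and 541 for WJ460 (limma log2 fold change 0.44 ± 0.10 SE, adjusted p = 0.00112), and neither pair of groups overlapped.

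ERO1A, the oxidase that reoxidises protein disulfide isomerase, gave one of the strongest rises under siMYOF. It was at 958, 799 and 769 for siGL3 and 2239, 1672 and 1605 for siMYOF, about the same step in the early pair (1.22) and the late libraries (1.06), with limma log2 fold change 1.12 ± 0.07 SE, adjusted p = 2.35e-10. Under DMSO it was at 876, 887 and 899 and under WJ460 at 1148, 1013 and 1074, a smaller step without overlap (limma log2 fold change 0.28 ± 0.07 SE, adjusted p = 0.00197), which was 0.12 (adjusted p = 0.159) with total-read scaling. Its paralog ERO1B was far rarer and turned the other way. It was at 174, 74.5 and 61.8 for siGL3 and 82.6, 56.9 and 53.3 for siMYOF, with the early siGL3 library highest (limma log2 fold change -0.55 ± 0.18 SE, adjusted p = 0.0154). Without siGL3 replicate 1 or siMYOF replicate 1 the value was -0.30 (adjusted p = 0.248 and 0.241). Under WJ460 it was at 129.7, 93.9 and 95.4, among the DMSO libraries at 133, 103 and 126 (limma log2 fold change -0.19 ± 0.18 SE, adjusted p = 0.411).

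PDIA3 (ERp57), the isomerase that works with CALR and CANX, rose under WJ460 although both lectins fell. It went from 7744, 7206 and 7329 to 11603, 12256 and 12793, without overlap (limma log2 fold change 0.72 ± 0.06 SE, adjusted p = 2.94e-08). The siGL3 libraries, at 8138, 9665 and 10103, and the siMYOF libraries, at 8365, 8500.1 and 8506, overlapped through the early siGL3 library (limma log2 fold change -0.13 ± 0.06 SE, adjusted p = 0.0850), and without siGL3 replicate 1 or siMYOF replicate 1 the value was -0.22 (adjusted p = 0.0110 and 0.0109). With total-read scaling it was -0.24 (adjusted p = 0.000680). PDIA4 fell under WJ460 by 0.41 on the log2 scale (limma adjusted p = 8.44e-06) and was 0.05 under siMYOF (adjusted p = 0.469). P4HB, the prototype isomerase, fell under siMYOF by 0.22 (limma adjusted p = 0.00654, and -0.17 with an adjusted p = 0.0513 without siMYOF replicate 2) and was 0.07 under WJ460 (adjusted p = 0.370). PDIA6 fell by 0.17 under both treatments (adjusted p = 0.0166 and 0.0203). That call was lost under siMYOF without siGL3 replicate 2 or siMYOF replicate 2 or 3 (-0.14 to -0.15, adjusted p = 0.0680 to 0.0786) and under WJ460 without DMSO replicate 1 or 3 or WJ460 replicate 2 (-0.14 to -0.16, adjusted p = 0.0693 to 0.0790). TXNDC5 held at most 22.5 normalised read counts and passed in neither treatment, apart from WJ460 without DMSO replicate 2 (1.47, adjusted p = 0.0323) or WJ460 replicate 3 (1.39, adjusted p = 0.0442).

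Of the 11 ERAD genes, 6 rose, 2 fell and 3 did not pass under siMYOF, and 5 rose, 2 fell and 4 did not pass under WJ460 (72.7% and 63.6% called, beside 53.9% and 52.9% of all tested genes). EDEM1, which marks misfolded glycoproteins for degradation, stood at 645, 457 and 334 normalised read counts for siGL3 and 1377, 864 and 852 for siMYOF. The lowest siMYOF library, at 852, was above the highest siGL3 library, at 645, and the step was alike in the early pair (1.09) and the late libraries (1.13), with limma log2 fold change 1.12 ± 0.10 SE, adjusted p = 2.85e-08. The WJ460 libraries, at 595, 516 and 511, overlapped the DMSO libraries, at 645, 580.3 and 580.3 (limma log2 fold change -0.16 ± 0.10 SE, adjusted p = 0.199), and with total-read scaling the value passed at -0.32 (adjusted p = 0.0174). EDEM3, its relative, was opposed between treatments. It was at 578, 535 and 414 for siGL3 and 686, 709 and 617 for siMYOF (limma log2 fold change 0.41 ± 0.09 SE, adjusted p = 0.00123). It was at 701, 661 and 665 for DMSO and 411, 423 and 419.8 for WJ460 (limma log2 fold change -0.69 ± 0.09 SE, adjusted p = 6.28e-06), and neither pair overlapped. EDEM2 was 0.13 under siMYOF (adjusted p = 0.161) and rose by 0.29 under WJ460 (limma adjusted p = 0.00294, and 0.13 with an adjusted p = 0.137 under total-read scaling).

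The ubiquitin ligase and its adaptor did not move together. SYVN1 was at 618, 762 and 669 for siGL3 and 840.0, 851 and 878 for siMYOF, without overlap (limma log2 fold change 0.33 ± 0.08 SE, adjusted p = 0.00108). Under DMSO it was at 869, 949 and 908 and under WJ460 at 879, 948 and 863, which overlapped (limma log2 fold change -0.02 ± 0.08 SE, adjusted p = 0.847). SEL1L showed the converse. It was at 1044, 1218 and 1055 for siGL3 and 993, 1153 and 1125 for siMYOF, which overlapped (limma log2 fold change -0.02 ± 0.07 SE, adjusted p = 0.829). It fell under WJ460 from 1171, 1170.4 and 1147 to 797, 779 and 772, a gap many times the spread in either group (limma log2 fold change -0.57 ± 0.07 SE, adjusted p = 1.23e-06). HERPUD1, a scaffold of the ligase complex, rose under both. It was at 317, 356 and 355 for siGL3 and 766, 464 and 559 for siMYOF (limma log2 fold change 0.77 ± 0.15 SE, adjusted p = 0.000412). It was at 345, 342 and 326 for DMSO and 599, 423 and 419.8 for WJ460 (limma log2 fold change 0.49 ± 0.15 SE, adjusted p = 0.0119). No groups overlapped, but replicate 1 was the highest in both treated groups, and the WJ460 value was 0.32 (adjusted p = 0.0582) without WJ460 replicate 1 and 0.33 (adjusted p = 0.0760) with total-read scaling.

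SELENOS, a selenoprotein that ties the ATPase VCP to the ER membrane, had the largest rise of these 11 ERAD genes under WJ460. It was at 732, 751 and 716 for DMSO and 1419, 1309 and 1479.5 for WJ460 (limma log2 fold change 0.93 ± 0.07 SE, adjusted p = 9.12e-09). It was at 870.3, 636 and 735 for siGL3 and 1169, 881 and 843 for siMYOF, where the early siGL3 library lay inside the siMYOF range (limma log2 fold change 0.36 ± 0.07 SE, adjusted p = 0.000372). OS9, a lectin that reads trimmed glycans, fell under siMYOF by 0.30 on the log2 scale (limma adjusted p = 0.000230) and rose under WJ460 by 0.37 (adjusted p = 2.65e-05). Its late siGL3 libraries were at 3410 and 3685 and the late siMYOF libraries at 2828 and 2796, with the early pair lower at 2040 and 1745. Among the derlins, DERL1 fell under siMYOF by 0.24 (adjusted p = 0.00336) and was -0.03 under WJ460, or -0.19 (adjusted p = 0.0165) with total-read scaling. DERL2 rose under siMYOF by 0.30 (limma adjusted p = 0.00277, and 0.19 with adjusted p = 0.0660 and 0.0675 without siGL3 replicate 1 or siMYOF replicate 1) and under WJ460 by 0.23 (adjusted p = 0.0158, 0.19 with adjusted p = 0.0810 without DMSO replicate 2, 0.20 with adjusted p = 0.0723 without WJ460 replicate 3, and 0.07 with adjusted p = 0.413 with total-read scaling). DERL3 ranged from 0.672 to 19.3 normalised read counts and passed in neither.

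The 3 channel and calcium genes comprised SEC61A1 and SEC61B, subunits of the channel through which proteins enter the ER, and WFS1, the ER membrane protein lost in Wolfram syndrome. SEC61A1 was at 6112, 9451 and 9686 for siGL3 and 5673, 7098 and 7261 for siMYOF, with overlap through the early pair (limma log2 fold change -0.31 ± 0.06 SE, adjusted p = 0.000292). It rose from 6344, 6213 and 6288 under DMSO to 8801, 9045 and 9204 under WJ460 (limma log2 fold change 0.52 ± 0.06 SE, adjusted p = 1.10e-06). SEC61B was -0.16 under siMYOF (adjusted p = 0.169, or -0.27 with adjusted p = 0.0236 with total-read scaling) and rose by 0.41 under WJ460 (adjusted p = 0.00134). WFS1 was at 330.0, 522 and 625 for siGL3 and 204, 319.8 and 307 for siMYOF (limma log2 fold change -0.80 ± 0.10 SE, adjusted p = 1.41e-06). It was at 440.1, 517 and 481 for DMSO and 294, 286 and 258 for WJ460 (limma log2 fold change -0.78 ± 0.10 SE, adjusted p = 2.41e-06). WFS1 thus lay lower in all libraries of both treated groups than in any library of their own controls.

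Whether knockdown and compound differed was tested gene by gene as the siMYOF effect minus the WJ460 effect. For 13 of the 39 genes the siMYOF effect was higher and for 12 lower, and 14 did not pass (64.1% called, beside 48.2% of all tested genes, 24.2% higher and 24% lower). The largest differences toward siMYOF were EDEM1 (1.28 ± 0.14 SE, limma adjusted p = 7.03e-07), EDEM3 (1.10 ± 0.13 SE, limma adjusted p = 2.16e-06) and EIF2AK3 (1.05 ± 0.20 SE, limma adjusted p = 0.000230). ERN1, ERO1A and DNAJC3 followed at 0.89, 0.84 and 0.71. The largest toward WJ460 were PDIA5 (-1.75 ± 0.12 SE, limma adjusted p = 4.21e-09), CRELD2 (-1.02 ± 0.14 SE, limma adjusted p = 1.02e-05) and PDIA3 (-0.85 ± 0.09 SE, limma adjusted p = 3.59e-07). SEC61A1, OS9, HSP90B1, SELENOS, SEC61B, CREB3 and HSPA5 followed at -0.83, -0.67, -0.65, -0.57, -0.56, -0.56 and -0.45. HSPA5 passed (adjusted p = 0.0226) but not without siGL3 replicate 2 or 3 or siMYOF replicate 2 or 3 (-0.43, -0.34, -0.36 and -0.41, adjusted p = 0.0581, 0.0525, 0.0550 and 0.0562), while without replicate 1 of either siRNA group it was -0.68. DNAJB9 (0.69 ± 0.21 SE, limma adjusted p = 0.0125) did not pass without siGL3 replicate 1 or siMYOF replicate 1 (0.43, adjusted p = 0.0897 and 0.0956).

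For WFS1, PDIA6 and DERL2 no difference was detected, with 95% intervals of -0.32 to 0.26, -0.17 to 0.16 and -0.16 to 0.29 on the log2 scale. For XBP1 and HERPUD1, which rose under both, the intervals were wider, at -0.13 to 0.49 and -0.17 to 0.73. CREB3L2 (0.30, interval -0.01 to 0.60) passed without siGL3 replicate 2 (0.38, adjusted p = 0.0395) or siMYOF replicate 3 (0.39, adjusted p = 0.0387), and DERL1 (-0.21, interval -0.41 to -0.02, unadjusted for the number of genes) passed without siGL3 replicate 1 (-0.27, adjusted p = 0.0317) or siMYOF replicate 1 (-0.27, adjusted p = 0.0314).

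**Figure D4:**
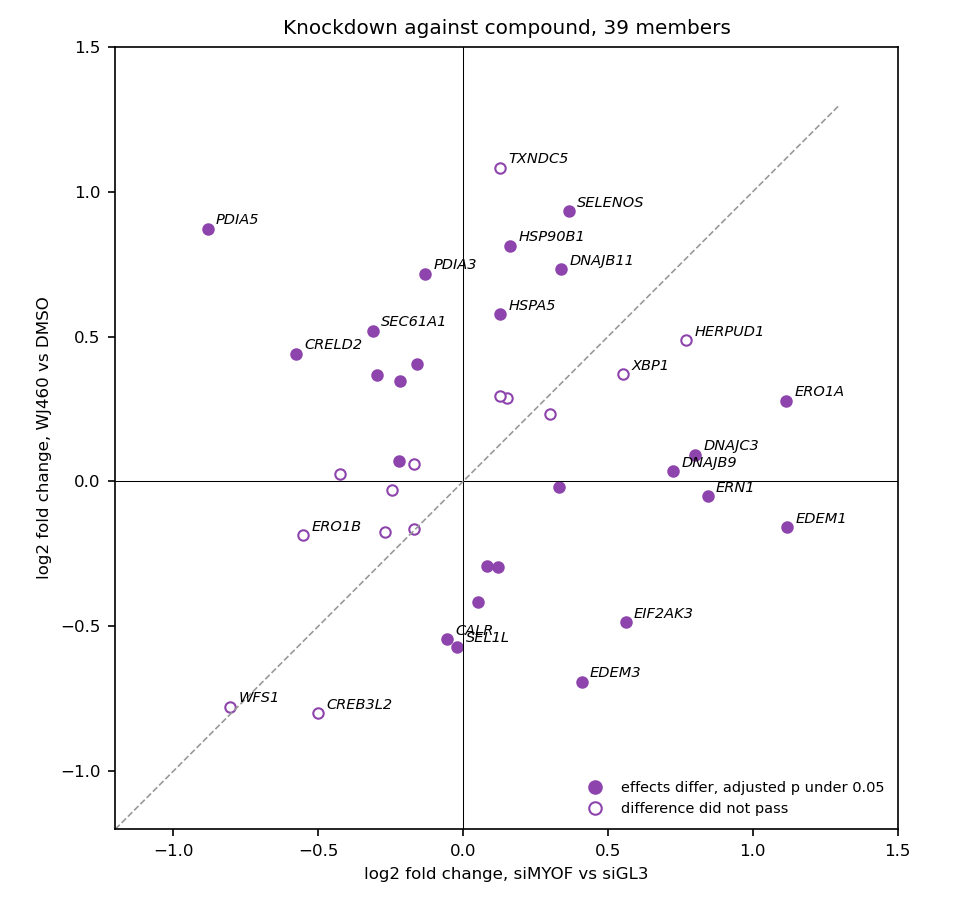
Log2 fold change of the 39 genes under siMYOF (x axis) and under WJ460 (y axis), limma estimates on the log2(normalised count + 1) scale. Filled points passed the test of the difference between the effects and the dashed line marks equal effects; PDIA5 lies far to the upper left and EIF2AK3 and EDEM3 to the lower right, while WFS1 lies on the line.

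The controls themselves were not alike. Between siGL3 and DMSO, which differ in transfection and in solvent, 12 of the 39 genes were higher and 7 lower in siGL3 (48.7% called), beside 32.1% of all tested genes (16.1% higher and 16% lower). PDIA5 (limma log2 fold change 0.76 ± 0.09 SE, adjusted p = 9.17e-06) and SEC61A1 (limma log2 fold change 0.56 ± 0.07 SE, adjusted p = 5.75e-06) were higher in siGL3, and EDEM1 (limma log2 fold change -0.61 ± 0.11 SE, adjusted p = 0.000256) and EDEM3 (limma log2 fold change -0.48 ± 0.10 SE, adjusted p = 0.00135) were lower. Without siGL3 replicate 3 the EDEM3 value was -0.32. The siMYOF values of PDIA5 (259 to 336) lay near those of DMSO (273 to 299), and the siMYOF values of EDEM3 (617 to 709) near those of DMSO (661 to 701). Calls were opposite under siMYOF and between the controls for PDIA5, PDIA6, P4HB, ERO1A, CREB3, CREB3L2, SYVN1, EDEM1, EDEM3, OS9 and SEC61A1. They had the same direction for XBP1 and ERO1B, and the other genes called under siMYOF did not pass between the controls. Such pairs were not counted over all tested genes. The comparison of the controls shares the siGL3 libraries with the knockdown comparison and the DMSO libraries with the compound comparison. A high or low siGL3 value thus moves the control and knockdown values in opposite directions. ERO1B (-0.68, adjusted p = 0.0115) was not past the threshold without DMSO replicate 1 (-0.61, adjusted p = 0.0551) or siGL3 replicate 3 (-0.50, adjusted p = 0.104), and XBP1 (0.41, adjusted p = 0.00916) not without siGL3 replicate 3 (0.25, adjusted p = 0.105). CREB3L2 (0.37, adjusted p = 0.0143) was lost without DMSO or siGL3 replicate 2 (0.33 and 0.26, adjusted p = 0.0604 and 0.124). HSPA5 (0.34, adjusted p = 0.0313) was lost without any 1 of the DMSO libraries or siGL3 replicate 2 or 3 (0.20 to 0.35, adjusted p = 0.0633 to 0.212). ERO1A (-0.20, adjusted p = 0.0365) was lost without any 1 of the DMSO libraries or replicate 1 or 3 of siGL3 or siMYOF (-0.21 to -0.18, adjusted p = 0.0527 to 0.104).

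Batch moved these genes as well. In the early libraries 7 of the 39 genes were higher and 16 lower than in the late ones (59% called, median -0.16), beside 45% of all tested genes. OS9, P4HB, WFS1 and PDIA6 were lower by 0.74, 0.70, 0.70 and 0.65 on the log2 scale, and ERO1B and EDEM1 higher by 0.96 and 0.70 (limma). Group SDs of the siRNA groups hold this spread, as for P4HB, at 10116 ± 3026 (SD, n = 3) in siGL3 against 8462 ± 57.4 (SD, n = 3) in DMSO. With the 10 late libraries alone, the siMYOF calls of HSP90B1, ERO1B, EIF2AK3 and DERL2 were lost (adjusted p = 0.0841, 0.248, 0.0557 and 0.0676), and SDF2L1 (-0.41, adjusted p = 0.0289) and PDIA3 (-0.22, adjusted p = 0.0110) were gained.

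The genes were also grouped by an arm of the UPR assigned to each. No gene was put on both the IRE1/XBP1 and the ATF6 list, although ATF6 and spliced XBP1 both act on ER stress elements. The lists are thus a working division, and a gene on either may also respond to the other arm. The IRE1/XBP1 list held ERN1, XBP1, DNAJB9, DNAJC3, EDEM1, SEC61A1, SEC61B, DERL1, DERL2, SYVN1 and PDIA6. Under siMYOF 7 of its 11 genes rose, 3 fell and 1 missed the threshold (90.9% called, beside 53.9% of all tested genes). The median log2 fold change was 0.33, or 0.22 with total-read scaling. Under WJ460 4 rose, 1 fell and 6 did not pass (45.5% called, beside 52.9% of all tested genes). The median there was 0.04, but -0.12 with total-read scaling and below 0 without DMSO replicate 1 or WJ460 replicate 1 (lowest value -0.016). The 3 that fell under siMYOF were DERL1, PDIA6 and the translocon gene SEC61A1, so the list did not move as one.

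The ATF6 list held ATF6 itself and 12 genes with chaperones in the majority (HSPA5, HSP90B1, CALR, PDIA4, HYOU1, CRELD2, MANF, SDF2L1, DNAJB11, HERPUD1, SEL1L and DERL3). Under siMYOF 3 of 13 rose, 2 fell and 8 did not pass (38.5% called, beside 53.9% of all tested genes). The median was 0.05, or -0.06 with total-read scaling and 0.0050 without siGL3 replicate 1 or siMYOF replicate 1. Under WJ460 6 rose, 5 fell and 2 did not pass (84.6% called, beside 52.9% of all tested genes). HSP90B1 and DNAJB11 were at the top and SEL1L and CALR at the bottom. The WJ460 median was 0.06, or -0.10 with total-read scaling and 0.28 without WJ460 replicate 3. The 11 ERAD genes, of which 4 are also on the IRE1/XBP1 list and 3 on the ATF6 list, had a median of 0.30 under siMYOF (0.19 with total-read scaling, and 0.19 without siGL3 replicate 1 or siMYOF replicate 1). Under WJ460 it was 0.02, and -0.12 with total-read scaling, while without WJ460 replicate 3, DMSO replicate 2 or DMSO replicate 3 it was 0.20, 0.17 or 0.15.

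**Figure D5:**
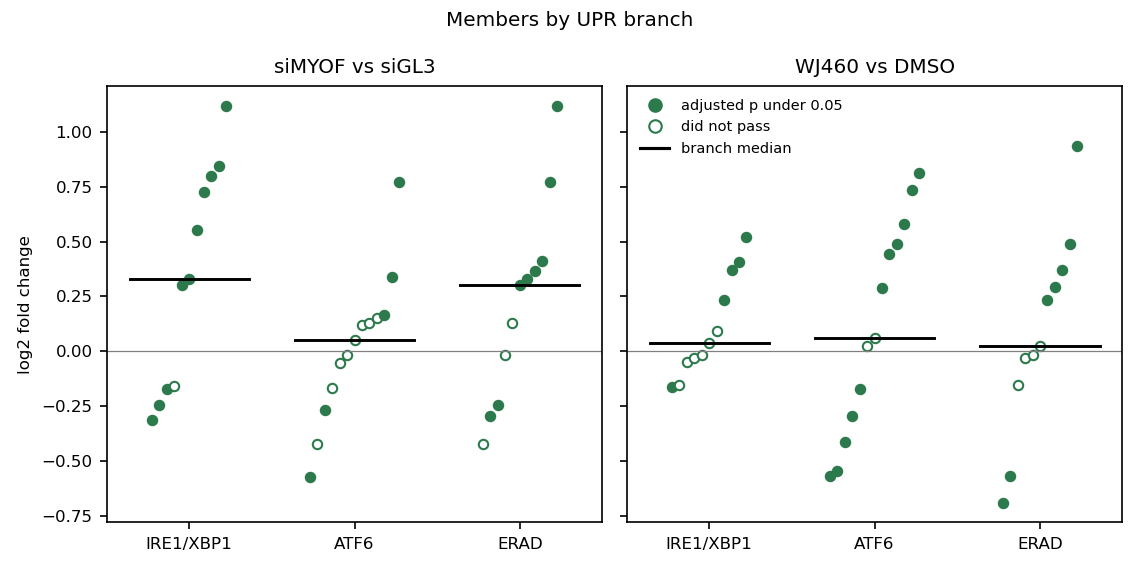
Log2 fold changes (y axis) of the genes on the IRE1/XBP1, ATF6 and ERAD lists (x axis) under siMYOF (left) and WJ460 (right), limma estimates. Filled points passed an adjusted p of 0.05 and lines mark the medians, which are 0.33, 0.05 and 0.30 under siMYOF and 0.04, 0.06 and 0.02 under WJ460; each list holds genes above and below 0.

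Read by the promoter sequences shown above, the 11 genes with an ERSE or ERSE-II split under both treatments. Under siMYOF XBP1, HERPUD1 and HSP90B1 rose, CRELD2, ERO1B, HYOU1 and PDIA6 fell and 4 did not pass (median -0.06). Under WJ460 5 rose, 4 fell and 2 did not pass (median 0.06). The shares over all tested genes were 28% higher and 25.9% lower under siMYOF, and 27.3% and 25.6% under WJ460. HSP90B1, with a match at -194 and another at -89, rose by 0.81 under WJ460, and CALR, with 1 reverse match at -225, fell by 0.55. The 25 genes with a window but no exact match to either element had 11 higher and 7 lower under each treatment (medians 0.13 and 0.09). Imperfect elements and those outside the windows were not searched. This grouping was chosen after the values were seen.

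Other genes of the pathway were taken from lists drawn up by textbook role, with earlier results of these data known. Of all tested genes, 28% rose and 25.9% fell under siMYOF, and 27.3% rose and 25.6% fell under WJ460. In the PERK and ATF4 arm 14 of 16 genes rose, 0 fell and 2 did not pass under siMYOF (median 1.15). ATF4 (1.73), PPP1R15A, the stress-induced eIF2alpha phosphatase subunit GADD34 (2.24), and its constitutive relative PPP1R15B (0.69) had the smallest p-values. Under WJ460 7 rose, 2 fell and 7 did not pass (median 0.24), led by PPP1R15A (1.52), ATF4 (0.68) and DDIT3, the transcription factor CHOP (0.64). ATF4 went from a mean of 2263 ± 887 (SD, n = 3) normalised read counts in siGL3 to 7272 ± 1563 (SD, n = 3) in siMYOF, and from 3619.9 ± 54.9 (SD, n = 3) in DMSO to 5804 ± 603 (SD, n = 3) in WJ460.

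Of 34 other tested folding genes, 6 rose, 16 fell and 12 did not pass under siMYOF (median -0.15), led by the prolyl isomerases FKBP9 (-1.98) and PPIC (-0.94) and the glycan-binding MLEC (-0.69). Under WJ460 19 rose, 7 fell and 8 did not pass (median 0.25), led by the sulfhydryl oxidase QSOX1 (1.10), TMX2 (0.79) and RCN1 (0.68). Of 31 genes of translocation, signal cleavage and N-glycosylation, 9 rose, 9 fell and 13 did not pass under siMYOF (median -0.01). SRPRB, of the signal recognition particle receptor (0.60), SPCS3, of signal peptidase (0.50), and OSTC, of the oligosaccharyltransferase (-0.54), led. The 58.1% called in that list under siMYOF lie near the 53.9% of all tested genes, as do the 47.4% of the list of other regulators. Under WJ460 20 rose, 4 fell and 7 did not pass (median 0.31), led by OSTC (0.67), SSR2 (0.50) and RPN2 (0.51).

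Of 30 other ERAD genes, 12 rose, 10 fell and 8 did not pass under siMYOF (median 0.10), with HERPUD2 (2.09), the ubiquitin-conjugating enzyme UBE2G2 (-0.83) and the ATPase VCP (-0.61) leading. Under WJ460 10 rose, 8 fell and 12 did not pass (median 0.11), led by AUP1, which recruits UBE2G2 (1.05), UBXN4 (0.60) and UBE2G2 (0.69). HERPUD2 was at 202, 150.2 and 104 in siGL3 and 752, 646 and 513 in siMYOF, with DMSO at 478, 430.2 and 432, so siGL3 lay below both. Of 19 other regulators, 3 rose, 6 fell and 10 did not pass under siMYOF (median -0.08), led by CREB3L4 (-1.05), the kinase MAP3K5 (1.21) and MBTPS1, the protease that makes the first cut in ATF6 (-0.58). Under WJ460 9 rose, 4 fell and 6 did not pass (median 0.20). ATF6B, the paralog of ATF6, rose by 0.81 where ATF6 fell by 0.29, MBTPS2, which makes the second cut, fell by 0.87, and TRAF2, an adaptor of IRE1, rose by 0.69 (limma adjusted p = 6.64e-09, 0.00306, 1.94e-07 and 1.16e-06).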

How the data were processed

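PANC-1 libraries (siGL3, siMYOF, DMSO and WJ460, 3 each) were made from total RNA with a stranded mRNA kit. The authors aligned and quantified reads with STAR and Salmon on GRCh38 and deposited 1 table of normalised expression signal per gene, that is read counts divided by DESeq2 size factors. Whether counting used strand is not given in the sources used here. In the deposited signal 100% of values came back as whole reads within 0.001 reads, so counts were recovered for the count tests.

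The 39 genes and all lists were chosen with earlier results of these data known. The 14720 genes that averaged 5 normalised counts or more were kept, and log2(value + 1) was fitted with limma 3.58.1 (R 4.3.3, trended and robust) over all 12 libraries with terms for group and for early or late batch, with Benjamini-Hochberg adjustment over all tested genes and a threshold of 0.05. A fold change on the log2(value + 1) scale understates that of low genes. Alternatives were TMM or total-read scaling, edgeR 4.0.16, DESeq2 1.42.0, pseudocounts 0.5 and 5, a minimum mean of 20 or none, no batch term, late libraries only, the groups compared only, the replicate number as a block, and each library left out in turn. The block for the siRNA libraries alone and the alternatives of the early against late test were added after seeing the data.

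Values in every library were given for ERN1, XBP1, ATF6, EIF2AK3, HSPA5, HSP90B1, DNAJB9, HERPUD1, SEL1L, SYVN1 and members past the threshold with an absolute log2 fold change of at least 0.5, and 3 genes with the smallest p per treatment were named from each other list. Same-numbered siGL3 and siMYOF libraries deviated together from their group means (correlations of 0.818, 0.530 and 0.595 over genes, the first of which is the early pair). Those means hold the early library, and between the late libraries alone, as replicate 2 minus replicate 3, the correlation was 0.127. Pairing of the late siRNA libraries by number was thus not established. The main fit had no replicate block, which was used in alternatives only. Same-numbered DMSO and WJ460 libraries did not deviate together (0.026, -0.002 and 0.005). The methods of the study call the replicates biological, and p-values measure the spread between these libraries. Exon lengths came from GENCODE 44 and promoter windows from RefSeq. The limma fit, and not the other steps, was run on simulated data with set siMYOF fold changes and a batch shift.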

Additional observations from a re-analysis of the deposited data

Results flagged for a closer look

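The siMYOF effect on HSPA5 differed between the early pair and the late libraries, by 0.693 on the log2 scale (limma adjusted p = 0.0232). The siGL3 libraries were at 8368 normalised read counts early and 13501 and 15098 late, and the siMYOF libraries at 12604 early and 12883 and 13730 late. The difference was 0.611 (adjusted p = 0.0743) with total-read scaling and 0.647 (adjusted p = 0.102) without siMYOF replicate 2, and its adjusted p was 0.000646 to 0.0494 under the other alternatives run. The early batch holds 1 library of each group. The effect on MYOF differed in the same comparison by 1.24 (adjusted p = 0.0110), and its adjusted p stayed between 1.50e-07 and 0.0256 under the alternatives run. Whether the shallower early loss of MYOF has a part in the HSPA5 value was not tested.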

How the results depend on the processing

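Across 3853 results for single members under 25 alternatives (24 for the difference of effects), 3711 kept their direction and side of the threshold, 119 lost the call, 23 gained one and 0 reversed, while 81 that passed in neither fit changed sign. For the 27 other named genes, 1335 of 1350 results kept theirs, 6 were lost and 9 gained. Total-read scaling moved the median of all genes from 0.01 to -0.096 under siMYOF and from 0 to -0.15 under WJ460. All-gene calls then went from 4126 higher and 3806 lower to 3189 and 4757 under siMYOF, and from 4017 and 3767 to 2639 and 5195 under WJ460. With it the siMYOF medians were -0.029 over the members, 0.22 (IRE1/XBP1), -0.057 (ATF6) and 0.19 (ERAD), and the WJ460 medians -0.090, -0.12 (IRE1/XBP1) -0.098 (ATF6) and -0.12 (ERAD), with 10 members higher. With no filter CREB3 under siMYOF (adjusted p = 0.0634), MANF under WJ460 (0.0615) and the HSPA5 difference (0.0728) were lost. With no batch term 5 members were lower under siMYOF, 11 were higher and 7 lower under WJ460, and 2 were higher and 4 lower in siGL3 against DMSO. All-gene calls then fell to 2800 higher and 2625 lower under siMYOF, 2597 and 2543 under WJ460, and 760 and 571 in siGL3 against DMSO. With late libraries only, the siMYOF median was 0.0050 over the members and 0.19 over ERAD genes.

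Leaving out each library in turn gave siMYOF medians of 0.0050 to 0.11 over the members, 0.28 to 0.40 (IRE1/XBP1), 0.0050 to 0.11 (ATF6) and 0.19 to 0.33 (ERAD), and WJ460 medians of 0.059 to 0.17 over the members, -0.016 to 0.12 (IRE1/XBP1), 0.0063 to 0.28 (ATF6) and -0.016 to 0.20 (ERAD). The replicate block left 14 members higher and 12 lower under siMYOF, with medians of 0.08 (members), 0.33, 0.05 and 0.30, and 17 and 11 under WJ460. The only member call it changed was ERO1A in siGL3 against DMSO (adjusted p = 0.0682). With the block on the siRNA libraries alone, the DERL1 difference passed (adjusted p = 0.0475), and in siGL3 against DMSO CREB3L2 was lost (0.0653) and SEC61B gained (0.0334). On recovered reads edgeR called 4046 genes higher and 4077 lower under siMYOF and 3994 and 3826 under WJ460, and DESeq2 3925 and 3637, and 3851 and 3444. DERL3 and TXNDC5 held at most 19.3 and 22.5 normalised read counts, and their differences between treatments had intervals of -1.87 to 0.98 and -2.44 to 0.53.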
